A study of Mus musculus with 45 samples.

Results

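The last 4 days of a 7-day differentiation were analysed in male E14tg2a embryonic stem cells (ESCs), an established line of wild-type genotype on the 129/Ola background, that had been kept in 2iL before differentiation. The comparison holds 6 libraries of the 45 in the series, chosen by their titles: day 7 and day 3 of 3 differentiation courses, 1 library for each course and day. 2iL is serum-free N2B27 medium with LIF, the GSK3 inhibitor CHIR99021 and the MEK inhibitor PD0325901, and it holds ESCs in the naive state. In the EB course the cells were grown in suspension in serum without LIF and formed embryoid bodies (EBs). In the EpiSC course they were grown attached in N2B27 with Fgf2 and Activin A (FA), towards cells of the post-implantation epiblast, and in the Neural course attached in N2B27 alone. The same 3 courses started from cells in serum plus LIF (SL) gave 6 more libraries of days 3 and 7, which were used as a separate set, and day 5 from 2iL was available for EBs and the Neural course and not analysed here for EpiSCs. The question put to these libraries was which genes went the same way in every course and which belonged to a single course.

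RNA was depleted of ribosomal RNA and counted per gene with strand. The 6 libraries held between 17275278 and 37563672 counts on genes, the EB libraries being the deepest, and 3 counts corresponded to 0.0769 to 0.19 CPM (counts scaled to library size by TMM factors, the unit of all levels here). The 3 courses were the only replicates of a day. The error of a shared change was therefore the spread of the change between courses that were grown differently, and an effect within a single course had no replicate from 2iL. All values are from bulk RNA, in which fewer cells of a type and less RNA per cell cannot be told apart. Against defining markers, the EpiSC library of day 7 held Nanog, Pou5f1 and Otx2 at 200.0, 166 and 25.2 CPM, and the Neural library of day 7 held Sox1 and Pax6 at 42.3 and 50.5 CPM together with Sox17 and Foxa2, endoderm factors, at 62.7 and 54.3 CPM.

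Cells that leave naive pluripotency pass through a formative stage like the early post-implantation epiblast, after which the germ layers separate: streak and mesoderm under Nodal, BMP and Wnt signals, neural tissue where these are low. Germline genes with promoters rich in CpG dinucleotides are active at low levels in ESCs of low DNA methylation and are known to be closed by DNA methylation in the embryo. Dnmt3b, Dnmt3a and their cofactor Dnmt3l write this methylation, Dnmt1 with Uhrf1 copies it, and the Tet enzymes oxidise it.

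Of 14589 genes tested, Acta2, Tnc and Anxa2 rose and Lincenc1 and Lefty2 fell from day 3 to day 7 in the edgeR quasi-likelihood test with the course as a block. These 5 were 0.0343% of the genes tested, and all 5 also moved by more than 2-fold the same way in each course. Their adjusted p-values ran from 0.0342 to 0.0364. The test had 2 residual degrees of freedom, and 3428 genes (23.5%) lay under an unadjusted p of 0.05. None of the 5 kept its call with only 2 courses: without EBs their adjusted p was 0.0586, without the Neural course 0.0983 to 0.139 and without EpiSCs 0.224 to 0.322.

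Acta2 (chr19:34241090-34255590, minus strand, GRCm38), which encodes the actin of smooth muscle, measured 0.32 to 60.6 CPM in EBs, 1.54 to 165 CPM in EpiSCs and 1.33 to 280.3 CPM in the Neural course, where as in all such pairs of values the first is from the library of day 3 and the second from that of day 7. Every day 7 library stood far above every day 3 library, and the mean log2 change was 6.61 ± 0.57 (SD, n = 3 courses) on the scale of log2(CPM + 0.5). At day 5 it measured 3.87 CPM in EBs and 98.1 CPM in the Neural course. Tnc (chr4:63959785-64047015, minus strand) encodes tenascin C, a matrix glycoprotein of migrating and remodelling tissue. It measured 0.291 to 23.5 CPM in EBs, 7.3 to 556 CPM in EpiSCs and 0.885 to 33.8 CPM in the Neural course, a mean log2 change of 5.24 ± 0.81 (SD, n = 3), and the EpiSC library of day 3 was the highest of its day. Anxa2 (chr9:69453620-69491795, plus strand), a membrane-binding annexin, measured 11.5 to 82.2 CPM in EBs, 10.3 to 91.4 CPM in EpiSCs and 15.9 to 115 CPM in the Neural course, with a mean log2 change of 2.89 ± 0.17 (SD, n = 3).

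Lincenc1 (chr13:97434970-97497007, plus strand), a long non-coding RNA of naive pluripotent cells, measured 64.8 to 6.38 CPM in EBs, 202 to 24.2 CPM in EpiSCs and 268 to 32.8 CPM in the Neural course. The groups did not overlap, the EB library of day 3 being the lowest of its day, and the mean log2 change was -3.10 ± 0.13 (SD, n = 3). Lefty2 (chr1:180893108-180899103, plus strand), a secreted inhibitor of Nodal and a target of that pathway, measured 57.6 to 7.72 CPM in EBs, 359 to 42.1 CPM in EpiSCs and 21.4 to 2.94 CPM in the Neural course. Its level differed so much between courses that the EpiSC library of day 7 exceeded the Neural library of day 3, and the mean log2 change was -2.86 ± 0.20 (SD, n = 3). From SL, Acta2, Tnc and Lincenc1 went the same way in all 3 courses. Anxa2 and Lefty2 did so in EpiSCs and the Neural course, and went the other way in EBs, by -0.40 and 0.72 on the log2 scale.

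**Figure D1:**
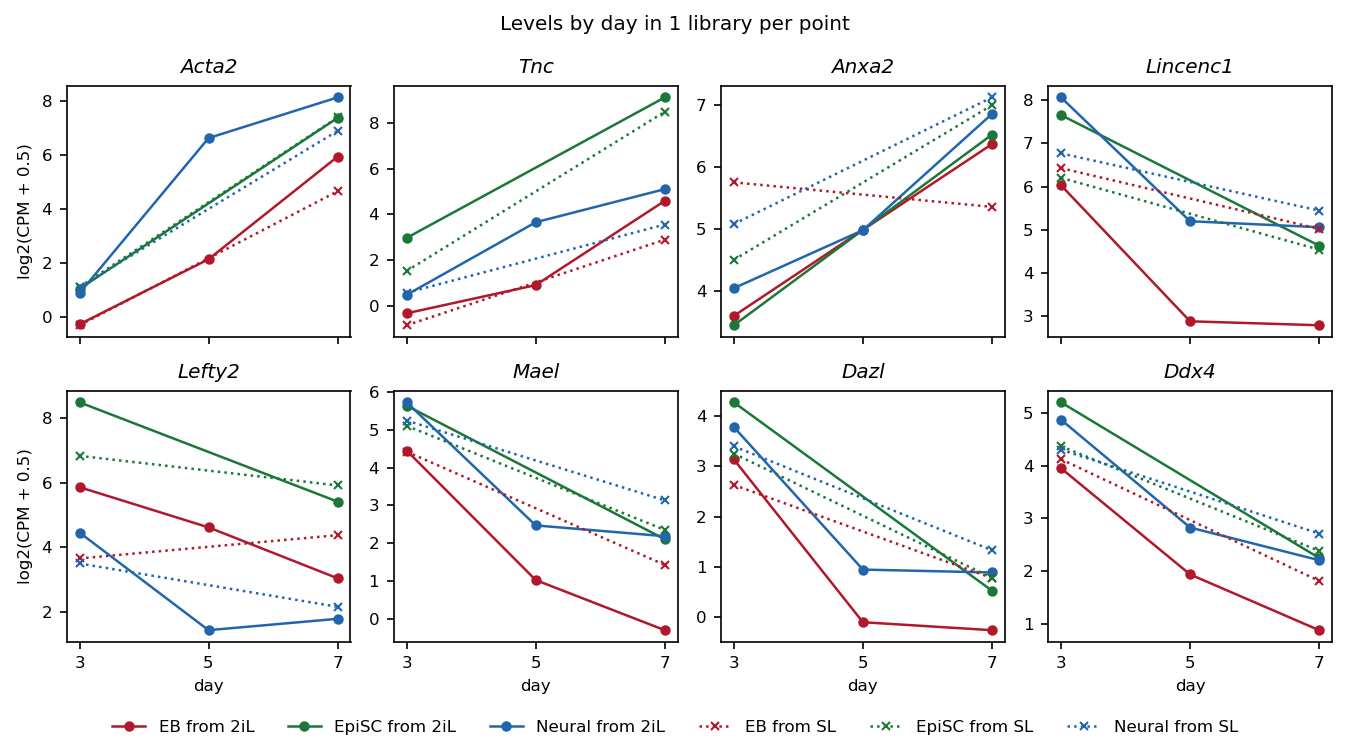
Levels of 8 genes by day (x axis) as log2(CPM + 0.5) (y axis), 1 library per point, coloured by course, with circles and full lines from 2iL and crosses and dotted lines from SL. From 2iL, Acta2, Tnc and Anxa2 end above and the other genes end below their level of day 3 in every course, and Anxa2 and Lefty2 go the other way in EBs from SL.

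The promoters of the genes at both ends of this comparison are shown for their CpG dinucleotides, in capitals. Each window of 300 bases runs 5′ to 3′ on the gene's strand from 250 bases before to 50 bases after a transcription start, as given by RefSeq on GRCm38.p6. Acta2 (chr19:34255324-34255623, minus strand) and Tnc (chr4:64046966-64047265, minus strand) were the first rises with an entry. Mael (chr1:166238695-166238994, minus strand), Dazl (chr17:50293571-50293870, minus strand) and Ddx4 (chr13:112652261-112652560, minus strand) are germline genes described in the paragraphs on falls and were chosen after their values were seen.
Acta2: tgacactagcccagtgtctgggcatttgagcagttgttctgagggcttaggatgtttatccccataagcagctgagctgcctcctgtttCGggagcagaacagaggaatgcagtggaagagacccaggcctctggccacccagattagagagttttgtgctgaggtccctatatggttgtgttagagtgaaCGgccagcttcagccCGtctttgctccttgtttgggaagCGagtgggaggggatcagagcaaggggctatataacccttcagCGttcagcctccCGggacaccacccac
Tnc: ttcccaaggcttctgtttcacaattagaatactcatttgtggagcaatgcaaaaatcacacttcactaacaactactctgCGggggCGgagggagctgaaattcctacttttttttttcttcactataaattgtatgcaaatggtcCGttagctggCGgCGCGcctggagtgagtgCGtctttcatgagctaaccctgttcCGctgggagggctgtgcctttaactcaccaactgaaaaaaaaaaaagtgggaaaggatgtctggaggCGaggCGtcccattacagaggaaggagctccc
Mael: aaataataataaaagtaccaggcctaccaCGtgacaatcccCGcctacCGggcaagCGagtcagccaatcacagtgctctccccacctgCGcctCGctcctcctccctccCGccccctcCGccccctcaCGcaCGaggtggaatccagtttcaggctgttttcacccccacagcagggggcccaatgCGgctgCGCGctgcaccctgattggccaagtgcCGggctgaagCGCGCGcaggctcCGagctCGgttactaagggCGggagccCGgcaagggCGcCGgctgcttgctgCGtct
Dazl: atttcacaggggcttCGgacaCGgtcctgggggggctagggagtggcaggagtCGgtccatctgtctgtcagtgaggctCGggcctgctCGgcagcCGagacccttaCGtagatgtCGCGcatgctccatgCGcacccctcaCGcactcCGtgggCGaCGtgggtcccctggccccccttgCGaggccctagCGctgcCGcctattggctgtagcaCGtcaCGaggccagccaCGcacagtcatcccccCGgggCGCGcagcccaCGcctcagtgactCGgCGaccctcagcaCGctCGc
Ddx4: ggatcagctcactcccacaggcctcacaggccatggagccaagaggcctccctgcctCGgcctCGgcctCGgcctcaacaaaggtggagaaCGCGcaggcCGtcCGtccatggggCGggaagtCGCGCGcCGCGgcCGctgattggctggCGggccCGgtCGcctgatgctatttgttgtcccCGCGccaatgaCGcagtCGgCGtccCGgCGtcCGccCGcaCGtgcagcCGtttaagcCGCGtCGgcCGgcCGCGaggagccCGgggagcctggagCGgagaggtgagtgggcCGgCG
The 2 windows of the genes that rose held 6 and 10 CpGs, and the 3 germline windows 24, 28 and 38. An entry was found for 10849 of 14990 symbols with at least 1 CPM in a library. Over these promoters the median was 20 CpGs, and 9.91% had fewer than Acta2 and 90.9% fewer than Ddx4. The letters CACGTG, read on both strands, which read alike on both, stand once each in the windows of Mael and Ddx4 and in 10.1% of all promoters. The letters TATAAA stand once in that of Tnc, and 6.82% of all promoters hold them on either strand. Of the 277 genes at least 2-fold lower in all 3 courses, described in the next paragraph, 168 had an entry, with a median of 8 CpGs and the middle 50% between 4 and 17, and of the genes at least 2-fold higher 272 had one, with a median of 18. The letters GGGCGG, searched on both strands, stood in 38.1% of the promoters of the lower genes, 59.9% of the higher and 64.7% of all.

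A wider set was described by size alone. Of 15019 genes with at least 1 CPM in any of the 6 libraries, 388 (2.58%) were at least 2-fold higher at day 7 in all 3 courses and 277 (1.84%) at least 2-fold lower, on the scale of log2(CPM + 0.5). All of them passed the filter of the test, 3 and 2 of them were called by it, and 387 and 276 lay under an unadjusted p of 0.05. A fit of all 23 libraries from 2iL adds the earlier days and day 5 to the estimate of the spread. It called 377 and 270 of these genes, among 14.3% of 16306 genes called higher and 14% called lower. Its common coefficient of variation between libraries was 0.257 with 13 residual degrees of freedom, against 0.351 with 2 in the 6-library test. Late differences between courses were thus judged partly by the spread of other days, and its calls are a weaker test of a shared change. A fit of the 12 libraries of both media called 17.7% higher and 17.1% lower. In that fit the same course from both media counts as 2 pairs, so differences between courses weigh less in its error. The 388 and 277 genes were chosen by changes in libraries that all these tests hold, so the counts called follow largely from the choice. At the limit itself, 124 genes had a smallest change of 1.0 to 1.1 on the log2 scale and 136 others of 0.9 to just under 1.

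Genes at least 2-fold changed in exactly 1 course outnumbered those changed in all 3. A fluctuation of 1 library can place a gene in the former class, so these counts do not weigh shared against single-course changes. EBs had 2036 genes at least 2-fold higher and 1571 lower, the Neural course 1956 and 1037, and EpiSCs 1262 and 781. Of genes at least 2-fold higher anywhere, 2308 were so in a single course, 891 in 2 and 388 in 3, and of those lower anywhere 1532, 513 and 277. A further overlap ran in opposite directions: 360 genes were at least 2-fold higher in 1 course and at least 2-fold lower in another. Across genes, which are not independent and share the library of each course, Pearson's r between changes was 0.53 for EBs and EpiSCs, 0.52 for EpiSCs and the Neural course and 0.36 for EBs and the Neural course.

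**Figure D2:**
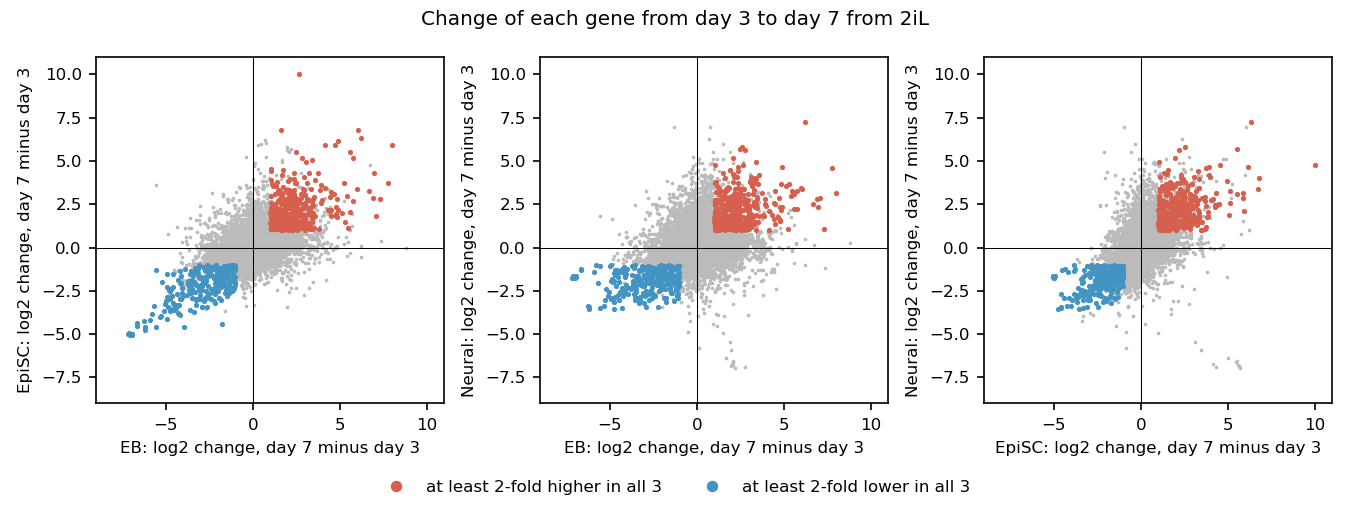
Log2 change from day 3 to day 7 of each gene in 1 course (x axis) against another (y axis), from 2iL, with 1 library per course and day. Red and blue mark the 388 genes at least 2-fold higher and the 277 at least 2-fold lower in all 3 courses, and grey the other genes, whose cloud is widest between EBs and the Neural course.

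The libraries from SL and of day 5 had no part in choosing these genes. The shares given for day 5 are not independent of the choice, since they are parts of the change from day 3 to day 7 that made it. From SL, 94.8% of the 388 were higher at day 7 in all 3 courses, against 26.8% of all genes, and 51.8% were at least 2-fold higher in all 3, against 1.98%. Of the 277, 92.8% were lower in all 3 courses from SL, against 26% of all genes, and 46.2% at least 2-fold, against 1.23%. At day 5 the lower genes had covered more of their way than the higher ones. Their median share of the log2 change reached by day 5 was 80.8% in EBs and 90.3% in the Neural course, and that of the higher genes 45.2% and 61.2%. Genes at least 2-fold lower in EBs or in the Neural course but not in all 3 courses had medians of 53.8% and 78.5%. For genes at least 2-fold higher but not in all 3 courses the medians were 43.7% and 39.8%. These shares are descriptions over 1 library per course.

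The genes higher in all 3 courses were ranked by their smallest change among those with at least 5 CPM at day 7. After Acta2 and Tnc came Capn6, a calpain-family protein, with 0.727 to 266 CPM in EBs, 1.19 to 21.9 CPM in EpiSCs and 1.83 to 56.3 CPM in the Neural course. Cdh11, a mesenchymal cadherin, measured 1.42 to 125 CPM in EBs, 0.795 to 140.5 CPM in EpiSCs and 2.34 to 29.6 CPM in the Neural course. Wnt5a, a ligand of non-canonical Wnt signalling, measured 0.494 to 62.1 CPM in EBs, 0.894 to 13.7 CPM in EpiSCs and 1.01 to 15.6 CPM in the Neural course. Col1a1, a chain of fibrillar collagen I, measured 0.727 to 58 CPM in EBs, 1.64 to 97.4 CPM in EpiSCs and 3.98 to 38.4 CPM in the Neural course. In these 4 genes no day 3 library exceeded 3.98 CPM and no day 7 library was under 13.7 CPM. Actc1, cardiac actin, measured 0.407 to 8.79 CPM in EBs, 0.596 to 10.7 CPM in EpiSCs and 0.696 to 18 CPM in the Neural course. Tagln, the actin-binding transgelin of smooth muscle, measured 4.36 to 65.8 CPM in EBs, 7.8 to 165 CPM in EpiSCs and 15.7 to 145 CPM in the Neural course. The others of the first 12 were Cd248, Rbms3, Unc5c and Anxa1. For the 10 of these 12 that the 6-library test did not call, its adjusted p ran from 0.0661 to 0.10. The adjusted p of the 23-library fit, which called all 12, ran from 1.62e-05 to 0.00267. The 12 were chosen by their changes in libraries that both tests hold. Neither the separation of the days nor these p-values are therefore independent support.

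The lists of related genes in this and the next paragraph were drawn up after these genes had been seen, so their counts are no independent evidence of a direction. Over all genes the 23-library fit called 14.3% higher and 14% lower, and 2.58% were at least 2-fold higher in every course. Of 18 smooth muscle and actin cytoskeleton genes, 13 were called higher and 0 lower by the 23-library fit, and 9 were at least 2-fold higher in every course. They included Cyr61, a matricellular growth regulator (9.24 to 53.2 CPM in EBs, 23.3 to 104 CPM in EpiSCs and 13.3 to 124 CPM in the Neural course). Tpm2 and Vcl were not called, with mean log2 changes of 0.09 ± 0.63 and 0.29 ± 0.25 (SD, n = 3). Of 28 ligands and receptors of axon guidance, 17 were called higher and 1 lower, with 12 at least 2-fold higher in every course. The ligand Slit2 measured 3.66 to 36.5 CPM in EBs, 5.22 to 37.4 CPM in EpiSCs and 3.41 to 46.2 CPM in the Neural course. Its receptor Robo2 measured 0.32 to 8.3 CPM in EBs, 0.248 to 24.6 CPM in EpiSCs and 12.8 to 48.3 CPM in the Neural course. The netrin receptor Unc5c measured 0.465 to 249 CPM in EBs, 0.149 to 38.4 CPM in EpiSCs and 0.253 to 6.13 CPM in the Neural course.

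The filament genes of simple epithelia rose in the 23-library fit. Krt8 measured 39 to 419 CPM in EBs, 30.8 to 167 CPM in EpiSCs and 41.4 to 644 CPM in the Neural course. Its partner Krt18 measured 75.3 to 459 CPM in EBs, 36.9 to 178 CPM in EpiSCs and 43.8 to 453 CPM in the Neural course. Vim, the filament protein of mesenchyme and of neural progenitors, measured 49.4 to 291 CPM in EBs, 168 to 644 CPM in EpiSCs and 188 to 613 CPM in the Neural course. Of 11 intermediate filament and lamin genes, 8 were called higher by the 23-library fit, Lmna among them, and 2 lower, Lmnb1 and Lmnb2. Of 11 annexins, 8 reached 1 CPM and 4 were called higher (Anxa1, Anxa2, Anxa3 and Anxa5), while Anxa11 was called lower. Of 19 Wnt ligands, 8 of 15 tested were called higher, and Wnt4, Wnt5a and Wnt7b were at least 2-fold higher in every course.

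Germline genes and zinc finger genes of a region of chromosome 4 were among the genes lower in all 3 courses. A list of 8 germline genes was chosen with earlier results of these data known. The 23-library fit called 7 of them lower, against 14% of all genes. At least 2-fold lower in each course were 6, against 1.84% of all genes. The median change was -2.88 in EBs, -2.69 in EpiSCs and -2.25 in the Neural course, against medians between 0.00 and 0.01 over all genes. Mael, a protein of the nuage that silences transposons in germ cells, measured 21.4 to 0.308 CPM in EBs, 49.6 to 3.8 CPM in EpiSCs and 52.8 to 4.05 CPM in the Neural course. Dazl, an RNA-binding protein that licenses germ cells, measured 8.31 to 0.333 CPM in EBs, 18.9 to 0.939 CPM in EpiSCs and 13.3 to 1.35 CPM in the Neural course. Ddx4, the germ cell helicase also called Vasa, measured 15 to 1.33 CPM in EBs, 36.4 to 4.25 CPM in EpiSCs and 28.8 to 4.11 CPM in the Neural course. In all 3 genes the groups did not overlap, and the EB library was the lowest of its day at day 3 and at day 7. All 3 are among the 12 falls chosen for their size in these libraries, so the separation follows largely from the choice. Sycp3, an axial element protein of meiotic chromosomes, was the member not called, at 16.9 to 4.28 CPM in EBs, 7.85 to 8.99 CPM in EpiSCs and 5.18 to 3.07 CPM in the Neural course. Tex19.1 was called lower with a log2 change in the Neural course of -0.92, under 2-fold. Among the 12 falls with the largest smallest change stood 3 relatives of widely used genes that testis is known for: Tuba3a, an alpha tubulin, at 19.4 to 0.385 CPM in EBs, 85.9 to 8.25 CPM in EpiSCs and 62.9 to 7.11 CPM in the Neural course, Hist1h2aa, a histone H2A, from 9.97, 9.59 and 12.8 CPM at day 3 to 0.0256, 0.494 and 0.674 CPM at day 7 in the same order, and Rpl39l, a ribosomal protein.

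A wider list of 32 genes of the piRNA pathway and of meiosis, drawn up afterwards, held 26 genes with at least 1 CPM. The 23-library fit called 22 of 31 tested lower and 1 higher, against 14% and 14.3% of all genes. At least 2-fold lower in every course were 16, against 1.84% of all genes. Since the list came after the falls had been seen, its counts are no independent evidence. Piwil2, a piRNA-binding Argonaute of the male germline, measured 4.74 to 0.615 CPM in EBs, 18.1 to 1.68 CPM in EpiSCs and 15.1 to 0.92 CPM in the Neural course. Tex11, a meiotic gene of the X chromosome, measured 4.68 to 0.0769 CPM in EBs, 29.5 to 5.83 CPM in EpiSCs and 14.9 to 3.0 CPM in the Neural course. Sohlh2, a transcription factor of germ cell differentiation, measured 5.2 to 0.205 CPM in EBs, 24.6 to 2.72 CPM in EpiSCs and 58 to 12 CPM in the Neural course. Tdrd7, a Tudor-domain protein, was the member called higher, at 2.0 to 11.4 CPM in EBs, 5.67 to 12.1 CPM in EpiSCs and 7.33 to 23.2 CPM in the Neural course. Tex15 was not called, and measured 48 to 21.9 CPM in EBs, 15.8 to 40.9 CPM in EpiSCs and 25.3 to 22.3 CPM in the Neural course. Dnmt3l, needed for methylation in germ cells, measured 89.1 to 3.67 CPM in EBs, 254 to 22.5 CPM in EpiSCs and 147 to 24.5 CPM in the Neural course and was lower by at least 2-fold in every course.

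The region of chromosome 4 from 145 to 148 Mb (GRCm38) holds a cluster of zinc finger genes of the KRAB type, a family of repressors many of which bind transposons. Of 29 protein-coding genes in it with at least 1 CPM, 19 were at least 2-fold lower in every course, against 1.84% of all genes, and the 23-library fit called 21 lower and 3 higher. Zfp600 measured 594 to 7.61 CPM in EBs, 488 to 17.6 CPM in EpiSCs and 388 to 32.1 CPM in the Neural course. Rex2, another zinc finger gene and not the pluripotency factor Zfp42 (Rex1), measured 667 to 8.46 CPM in EBs, 546 to 21.8 CPM in EpiSCs and 422 to 38.9 CPM in the Neural course. Zfp534 measured 67.8 to 2.15 CPM in EBs, 65.1 to 4.89 CPM in EpiSCs and 45.2 to 5.76 CPM in the Neural course. Next to the cluster, Zfp933 had a mean log2 change of 0.29 ± 0.33 and was not called, and Mfn2, a mitochondrial fusion protein, had one of 0.41 ± 0.02 (SD, n = 3) and was called higher. Chromosome 4 gave 34 of the 277 lower genes (12.3%), and 6.48% of all genes lie on it. The X chromosome gave 26 (9.39%, against 3.78% of all genes). Genes of the cluster are close copies of each other, so reads can be split or lost between them and their values are uncertain and not independent. The region was chosen after its values were seen.

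**Figure D3:**
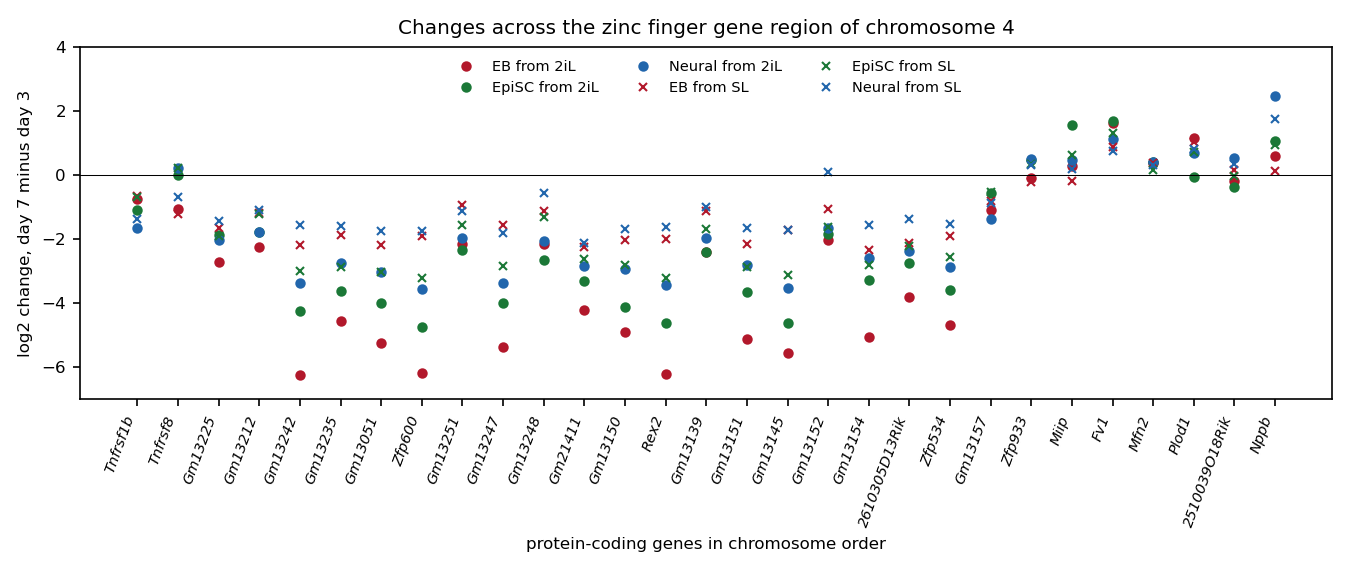
Log2 change from day 3 to day 7 (y axis) of the 29 protein-coding genes with at least 1 CPM between 145 and 148 Mb of chromosome 4, in chromosome order (x axis), circles from 2iL and crosses from SL, coloured by course. From 2iL the genes from Gm13225 to Gm13157 lie below 0 in every course, EBs lowest in most, and the genes on their right lie near or above 0.

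The lists that follow are counted in the 23-library fit, whose error also draws on the other days. It called 14.3% of all genes higher and 14% lower. At least 2-fold higher in every course were 2.58% of all genes, and at least 2-fold lower 1.84%. Naive and general pluripotency genes did not move together. Of 13 naive genes, 4 were called lower by the 23-library fit (Esrrb, Zfp42, Nr0b1 and Fgf4) and 2 higher (Klf4 and Tbx3), and the median change was -1.38 in EBs, -0.25 in EpiSCs and 0.21 in the Neural course. Nanog, the homeodomain factor of pluripotency, measured 130.2 to 49.7 CPM in EBs, 185 to 200.0 CPM in EpiSCs and 51 to 13.2 CPM in the Neural course, lower in EBs and the Neural course and not in EpiSCs. Tfcp2l1, a factor of naive cells that kidney also uses, measured 30.9 to 13.5 CPM in EBs, 32.5 to 27.3 CPM in EpiSCs and 20.6 to 98.8 CPM in the Neural course, so that the Neural library of day 7 was the highest of the 6. Fgf4, made by pluripotent cells, measured 128 to 2.23 CPM in EBs, 29.5 to 11.6 CPM in EpiSCs and 11.7 to 5.33 CPM in the Neural course. Of 10 general pluripotency genes, 4 were called lower and 0 higher. Pou5f1, which encodes Oct4, measured 503 to 73.9 CPM in EBs, 173 to 166 CPM in EpiSCs and 70.7 to 56.4 CPM in the Neural course, and the 23-library fit did not call it (adjusted p = 0.233). Dppa4, a chromatin protein of pluripotent cells, was lower in every course at 69.6 to 3.1 CPM in EBs, 40.5 to 10.7 CPM in EpiSCs and 46.5 to 8.65 CPM in the Neural course. Tdgf1, the Nodal co-receptor Cripto, measured 121 to 29.2 CPM in EBs, 132 to 41.5 CPM in EpiSCs and 20.6 to 7.17 CPM in the Neural course.

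Genes of the formative and primed epiblast were most often at least 2-fold lower in EBs. The median change of the 12 listed genes was -2.59 in EBs, -0.53 in EpiSCs and -0.85 in the Neural course. In EBs 11 were at least 2-fold lower, in EpiSCs 4 and in the Neural course 5. Over all genes the shares at least 2-fold lower were 10.5%, 5.2% and 6.9%. The 23-library fit called Pou3f1 and Lefty2 lower and no member of the list higher, against 14% and 14.3% of all genes. In edgeR's test of each course against the mean of the others, described in the paragraph on streak genes, 0 of 12 were called lower in EBs, with 7 under an unadjusted p of 0.05 and 7 called by DESeq2. From SL the medians were -0.89 in EBs, -0.73 in EpiSCs and -0.44 in the Neural course. Pou3f1, the POU factor Oct6, measured 109.9 to 8.28 CPM in EBs, 55.4 to 13.5 CPM in EpiSCs and 33.5 to 8.4 CPM in the Neural course. Fgf5, the classical marker of this stage, measured 80.8 to 10.1 CPM in EBs, 35.8 to 23.7 CPM in EpiSCs and 2.59 to 2.76 CPM in the Neural course. Otx2, its head-side transcription factor, measured 144 to 43 CPM in EBs, 24.1 to 25.2 CPM in EpiSCs and 4.05 to 7.05 CPM in the Neural course. Lefty1, the relative of Lefty2, measured 65.6 to 5.08 CPM in EBs, 875 to 218 CPM in EpiSCs and 52.7 to 6.01 CPM in the Neural course, with its highest level in EpiSCs under Activin A, and Nodal 28.6 to 9.2 CPM in EBs, 62.5 to 28.3 CPM in EpiSCs and 4.74 to 2.51 CPM in the Neural course. In the Neural course Fgf5 and Otx2 were already low at day 3.

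Of 8 enzymes and cofactors of DNA methylation, 3 were called lower by the 23-library fit, namely Dnmt3l, Uhrf1 and Tet1, and Tet3 was called higher. Dnmt3b measured 3027 to 240.2 CPM in EBs, 489 to 449 CPM in EpiSCs and 437 to 233 CPM in the Neural course, so the EB library of day 3 held by far the most and the 3 libraries of day 7 were within 2-fold of each other. It was not called (adjusted p = 0.0593). Tet1 measured 419 to 127 CPM in EBs, 236 to 176 CPM in EpiSCs and 132 to 80.1 CPM in the Neural course. Tet3 measured 22.5 to 45.3 CPM in EBs, 30.6 to 42.7 CPM in EpiSCs and 41.1 to 61.6 CPM in the Neural course. Dnmt1 measured 379 to 342 CPM in EBs, 350.1 to 386 CPM in EpiSCs and 397 to 330.1 CPM in the Neural course, with a mean log2 change of -0.09 ± 0.21 (SD, n = 3), and was not called.

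How far a change was particular to 1 course was tested with the 12 libraries of both media, as the change of that course minus the mean change of the other 2 (the course test, whose counts over all genes follow the lists). The course test called 6 of 12 tested genes of the streak list higher in EBs (T, Mixl1, Wnt3, Fgf8, Mesp1 and Cer1), against 2.36% of all genes. Of 12 streak and mesendoderm genes with at least 1 CPM, 11 were at least 2-fold higher in EBs, 1 in EpiSCs and 1 in the Neural course. Over all genes the shares at least 2-fold higher were 13.6%, 8.4% and 13%. T, or Brachyury, the T-box factor of the streak, measured 0.843 to 70.4 CPM in EBs, 1.34 to 3.85 CPM in EpiSCs and 0.569 to 0.797 CPM in the Neural course. Eomes, its relative in the anterior streak, measured 12.3 to 52.6 CPM in EBs, 36.9 to 13.7 CPM in EpiSCs and 5.82 to 5.09 CPM in the Neural course, higher in EBs and lower in EpiSCs. Mixl1, Gsc, Lhx1 and Cer1 showed this contrast too, with Cer1, an antagonist of Nodal and Wnt, at 1.95 to 8.97 CPM in EBs and 23.8 to 1.73 CPM in EpiSCs.

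Among 17 cardiac and lateral mesoderm genes, the 23-library fit called 11 higher and 1 lower (Tcf15, a somite factor also made by epiblast), and 6 were at least 2-fold higher in all 3 courses. Hand1, a factor of lateral and extra-embryonic mesoderm, measured 0.291 to 350.5 CPM in EBs, 2.78 to 2.72 CPM in EpiSCs and 3.54 to 4.35 CPM in the Neural course. Foxf1, a forkhead factor of splanchnic mesoderm, measured 0.116 to 46.1 CPM in EBs, 0.348 to 0.395 CPM in EpiSCs and 0.696 to 1.17 CPM in the Neural course, again with 1 library above all the rest. Pdgfra, a growth factor receptor of mesoderm and primitive endoderm, was higher in 2 courses, at 4.21 to 86.3 CPM in EBs and 34.2 to 273 CPM in the Neural course, and measured 10.7 to 9.24 CPM in EpiSCs. Tnnt2, troponin T of heart muscle, had at most 0.593 CPM in the 6 libraries. With edgeR the course test called 0 genes of this list for EBs, with 6 higher and 2 lower under an unadjusted p of 0.05, and DESeq2 called 4 higher. For Hand1 the difference of EBs from the other courses was 7.68 ± 1.55 (log2, SE, adjusted p = 0.0693). Of 17 blood and endothelium genes, 9 were at least 2-fold higher in EBs, against 13.6% of all genes. There Kdr, the VEGF receptor of mesoderm progenitors, measured 1.28 to 135 CPM and Tal1, a factor of blood progenitors, 1.66 to 19.4 CPM. The embryonic globin Hbb-bh1 had 0 counts at day 3 and 3.67 CPM at day 7 of EBs. The course test called 3 genes of this list higher in EBs, Kdr, Tie1 and Tal1, and for Kdr the difference was 6.67 ± 0.60 (log2, SE, adjusted p = 0.0113). The 23-library fit called 4 higher, Hbb-bh1 among them, and Cd34 lower, against 14.3% and 14% of all genes.

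In EpiSCs 4 of 10 general and 4 of 13 naive pluripotency genes were at least 2-fold lower at day 7, against 5.2% of all genes. Nanog and Pou5f1 were near their level of day 3. Nanog and Pou5f1 had log2 changes of 0.11 and -0.06 there, against -1.38 and -2.76 in EBs. Col3a1, a chain of fibrillar collagen III, measured 0.0497 to 567 CPM in EpiSCs, 0.32 to 4.59 CPM in EBs and 0.253 to 20.1 CPM in the Neural course, and the difference of EpiSCs from the other courses was 6.59 ± 0.82 (log2, SE, adjusted p = 0.0923). Tfap2b, a factor of neural crest, measured 0.0497 to 29.9 CPM, and Zic1, a factor of dorsal neural tissue and crest, 0.994 to 45.3 CPM. Fabp7, a fatty acid binding protein of radial glia, measured 0.447 to 59.96 CPM, and Dcx, a microtubule protein of young neurons, 0.149 to 42.8 CPM. Over the 12 neural crest genes, the 23-library fit, which joins all courses, called 8 higher and 0 lower, against 14.3% and 14% of all genes. At least 2-fold higher were 10 in EBs, 6 in EpiSCs and 4 in the Neural course, against 13.6%, 8.4% and 13% of all genes. The course test called 2 of them higher in EBs and 0 in EpiSCs, so the rise was not particular to EpiSCs. Msx1 and Msx2, homeobox genes that mesoderm shares, were highest in EBs, at 2.96 to 102 CPM and 0.174 to 81 CPM.

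The Neural course held young neurons' genes and, in the same library, basement membrane and endoderm genes. Of 18 neuronal genes, 15 were at least 2-fold higher in the Neural course (all genes 13%), 13 in EpiSCs (all genes 8.4%) and 2 in EBs (all genes 13.6%, a similar share). The 23-library fit called 10 higher and 0 lower, and the course test called 4 higher in the Neural course than in the others (Elavl4, Nefl, Nefm and Slc17a6) and 1 lower (Stmn2), and 2 lower in EBs (Nefm and Slc17a6). Dcx measured 0.506 to 123 CPM, Tubb3, neuronal tubulin, 28.8 to 213 CPM, and Neurod4, a proneural factor, 0.506 to 34.1 CPM. Progenitor genes were mixed. The course test called Sox1, Msi1, Sox21 and Zic1 lower in the Neural course than in the others, Sox1, Msi1 and Sox21 higher in EBs, and Nes and Ncan lower in EBs. Sox1, the earliest neural Sox factor, measured 246 to 42.3 CPM, while Pou3f2, the factor Brn2, measured 4.36 to 81.7 CPM and Hes5, a Notch target, 4.3 to 37.3 CPM. Over all courses, the 23-library fit called 5 of 11 progenitor genes higher and 0 lower. Of 18 patterning genes it called 7 higher and Gbx2 lower, against 14.3% and 14% of all genes. The patterning rise was not particular to the Neural course. At least 2-fold higher were 11 patterning genes in EBs and 5 in the Neural course, and the course test called 6 and 1 higher. Their sum went from 8.95 to 37.5 CPM in EBs and from 157 to 96.7 CPM in the Neural course. In the Neural course Shh, the ventral signal, measured 0.19 to 8.03 CPM, and Nkx6-1, a ventral homeobox gene, 1.64 to 21.9 CPM. Gbx2, of the anterior hindbrain and of epiblast, measured 111 to 6.56 CPM.

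Basement membrane genes reached very high levels in the Neural course. Col4a1, a chain of collagen IV, measured 99.2 to 425 CPM in EBs, 179 to 216 CPM in EpiSCs and 278 to 8231 CPM in the Neural course. Lama1, a laminin chain, measured 48.9 to 121 CPM in EBs, 74.4 to 133 CPM in EpiSCs and 243 to 5155 CPM in the Neural course, and Lamb1, Lamc1 and Sparc measured 255 to 3057 CPM, 309.9 to 2980.4 CPM and 153 to 2884 CPM in that course. Of 14 matrix genes, 11 were called higher by the 23-library fit and none lower, and 5 were at least 2-fold higher in each course. Fn1, fibronectin, measured 226 to 926 CPM in EBs, 185 to 372 CPM in EpiSCs and 172 to 463 CPM in the Neural course. In the same Neural library 12 of 14 endoderm genes with at least 1 CPM were at least 2-fold higher (all genes 13%), against 4 in EBs (all genes 13.6%) and 0 in EpiSCs (all genes 8.4%). Gata4 and Gata6, zinc finger factors of endoderm, measured 7.21 to 118 CPM and 11.1 to 105 CPM, and Cubn, an uptake receptor of visceral endoderm, 286 to 1553 CPM. Summed over the 15 endoderm genes, the level was 501 CPM at day 3 and 2569.9 CPM at day 7 in the Neural course, 379 and 283 CPM in EBs, and 748 and 189 CPM in EpiSCs. From SL the sums were 2117 and 3081.5 CPM in the Neural course, 2636.8 and 3258.5 CPM in EBs, and 1264.1 and 145 CPM in EpiSCs. A high endoderm level was thus not particular to the Neural course, and the low level of EBs was that of the single pair from 2iL. Apoa2 had at most 0.205 CPM in the 6 libraries from 2iL. The part of these genes' cells in the other results of the Neural course was not tested. The course test called 1 endoderm gene, Hnf4a, higher in the Neural course, and of the matrix list it called Lamb1 and Lamc1 higher and Col1a2, Col5a1 and Col6a2, chains of other collagens, lower in the Neural course than in the others. For Col4a1 the difference of the Neural course was 3.13 ± 0.65 (log2, SE, adjusted p = 0.0572) and for Gata4 2.66 ± 1.11 (adjusted p = 0.225). The 23-library fit called 3 endoderm genes higher (Sox17, Gata4 and Gata6) and Apob lower, against 14.3% and 14% of all genes.

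Of 8 trophoblast genes, 5 reached 1 CPM and the 23-library fit called 2 higher, Krt7 and Plac1, against 14.3% of all genes. Elf5, Gcm1 and Prl3d1 had at most 0.494 CPM. Cdx2, shared by trophoblast and posterior mesoderm, measured 0.233 to 30.4 CPM in EBs. Among 9 cadherin and epithelial genes, 4 were called higher (Cdh11, Cldn7, Vim and Snai1). Cdh1, E-cadherin, measured 568 to 135 CPM in EBs, 133 to 220.1 CPM in EpiSCs and 67.3 to 183 CPM in the Neural course, so it was lower in EBs and higher in the other 2 courses, and Cdh2, N-cadherin, measured 6.68 to 135 CPM in EBs, 57.2 to 127 CPM in EpiSCs and 125 to 126 CPM in the Neural course.

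Hox genes changed differently between the courses. Of 39 Hox genes, 29 reached 1 CPM in a library. In EBs 20 were at least 2-fold higher and 0 lower, in EpiSCs 2 and 6, and in the Neural course 0 and 8. Over all genes the shares were 13.6% and 10.5%, 8.4% and 5.2%, and 13% and 6.9%, in the same order. From SL the rise in EBs was smaller, with a median change of 0.47 against 1.99 from 2iL and a sum of 7.54 to 17.7 CPM. From 2iL the sum over the list was 4.68 to 96.5 CPM in EBs, 175 to 117 CPM in EpiSCs and 171 to 89.7 CPM in the Neural course. The courses from 2iL thus differed mainly at day 3, when the EB library held very little. Hoxb1, the first Hox gene of the posterior embryo, measured 0.0581 to 3.87 CPM in EBs, 12.8 to 1.48 CPM in EpiSCs and 23.2 to 1.1 CPM in the Neural course, higher in EBs and lower in the other 2 courses. Hoxd1, its paralogue, measured 0.465 to 20.3 CPM in EBs, 0.795 to 0.84 CPM in EpiSCs and 1.14 to 0.123 CPM in the Neural course. The course test called 8 of 31 tested Hox genes higher in EBs than in the other courses and 5 lower in the Neural course (Hoxa2, Hoxa5, Hoxa9, Hoxb1 and Hoxb2). For the shared change, the 23-library fit called 4 of 35 tested higher (Hoxa13, Hoxc4, Hoxd8 and Hoxd9) and none lower, against 14.3% and 14% of all genes. Retinoic acid is a known regulator of Hox genes. Among the genes of its pathway, Crabp1, a carrier of retinoic acid, measured 3.31 to 35.2 CPM in EBs, 60.1 to 306 CPM in EpiSCs and 1194 to 254 CPM in the Neural course. Stra6, the membrane receptor for retinol-binding protein, measured 2.67 to 2.67 CPM in EBs, 8.25 to 10.2 CPM in EpiSCs and 61.4 to 16.6 CPM in the Neural course. Cyp26b1, which degrades retinoic acid, was the member of 10 that the 23-library fit called higher, at 0.0581 to 1.82 CPM in EBs, 0.149 to 3.31 CPM in EpiSCs and 1.64 to 29.4 CPM in the Neural course.

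Most replication genes were lower, with a median change under 2-fold in each course. At least 2-fold lower was 1 gene in the Neural course and 0 in EBs and EpiSCs. Of 11 replication and mitosis genes, 9 were called lower by the 23-library fit and none higher, and the median change was -0.60 in EBs, -0.34 in EpiSCs and -0.66 in the Neural course. Mcm2, a subunit of the replicative helicase, measured 450.1 to 242 CPM in EBs, 409 to 273 CPM in EpiSCs and 366 to 191 CPM in the Neural course. Mki67, the marker of dividing cells, was not called, at 495 to 541 CPM in EBs, 576 to 664 CPM in EpiSCs and 529.8 to 436 CPM in the Neural course. Of 15 G1 regulators, Ccnd2 and Cdkn1a were called higher and Ccne1 lower, against 14.3% and 14% of all genes. Ccnd2, cyclin D2, measured 2.44 to 87.6 CPM in EBs, 24.1 to 110.4 CPM in EpiSCs and 58.4 to 292 CPM in the Neural course, at least 2-fold higher in each course, and Cdkn1a, the inhibitor p21, 12.8 to 51.9 CPM in EBs, 32.7 to 60.5 CPM in EpiSCs and 28.2 to 94.6 CPM in the Neural course.

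Of 19 imprinted genes, the 23-library fit called 3 higher (Igf2, Peg3 and Ndn) and 2 lower (Mirg and Grb10). These counts were near the shares of all genes, 14.3% and 14%. Peg3, a paternally expressed zinc finger gene, measured 269 to 1889 CPM in EBs, 407 to 1554 CPM in EpiSCs and 559.6 to 1633 CPM in the Neural course. Igf2, a fetal growth factor, measured 5.08 to 905 CPM in EBs, 9.09 to 67 CPM in EpiSCs and 116 to 242 CPM in the Neural course. H19, expressed from the other parental copy of that locus, measured 69.2 to 782 CPM in EBs, 221 to 1373 CPM in EpiSCs and 626 to 772 CPM in the Neural course. Of 13 genes of hypoxia and glycolysis, 2 were called higher (Ndrg1 and P4ha1) and Pdk1 lower, against the same shares of all genes. Pdk1 measured 308 to 73.9 CPM in EBs, 219 to 83.5 CPM in EpiSCs and 88.9 to 46.9 CPM in the Neural course. At the Xist locus, Tsix and Tsx were called lower and Jpx higher. Xist measured 1.51 to 0.359 CPM in EBs, 1.04 to 0.296 CPM in EpiSCs and 3.92 to 2.45 CPM in the Neural course and was not called (adjusted p = 0.146), and its antisense partner Tsix measured 3.63 to 0.641 CPM in EBs, 2.04 to 1.09 CPM in EpiSCs and 2.78 to 1.1 CPM in the Neural course.

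**Figure D4:**
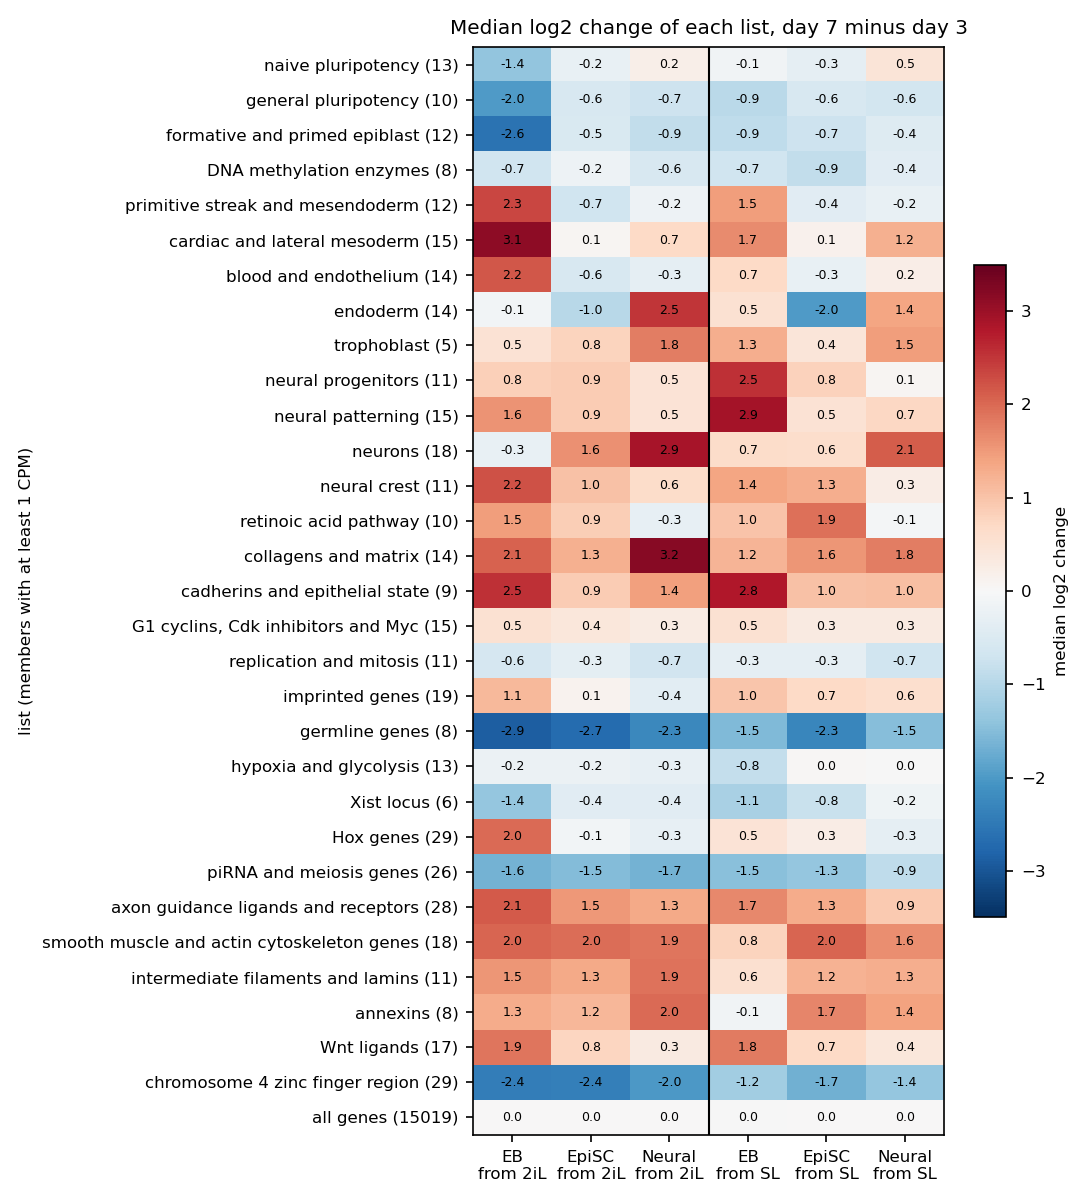
Median log2 change from day 3 to day 7 of each gene list (rows, with the number of members of at least 1 CPM) in the 3 courses from 2iL and from SL (columns, 1 library per course and day), in colour and as a number. Germline genes and the chromosome 4 region are below 0 in all 6 columns, mesoderm lists are highest in EBs from 2iL, and endoderm, neuron and matrix lists in the Neural course from 2iL.

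Over all genes, the course test found that EBs differed at 623 of 15750 genes, 371 higher (2.36%) and 252 lower (1.60%), and the Neural course at 913, 462 higher (2.93%) and 451 lower (2.86%). For EpiSCs edgeR called 0 genes, with 1978 under an unadjusted p of 0.05, and DESeq2 called 404. These counts rest on few libraries. Without the Neural pair from 2iL the count of genes higher in EBs was 3 and that of genes higher in the Neural course 0, and without the EB pair from SL they were 760 and 1017. From 2iL alone, genes that moved at least 4-fold in a single course and under 2-fold in both others numbered 233 higher and 144 lower in EBs, 202 and 35 in the Neural course and 48 and 4 in EpiSCs. In the same course from SL, 64% of the higher genes of EBs were at least 2-fold higher, against 9.89% of all genes, 92.6% of those of the Neural course, against 10.5%, and 72.9% of those of EpiSCs, against 7.79%.

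In EBs the largest such differences upward were Mesp1, Hoxb2, Grrp1, Wnt9b, Sp5 and Crb2. Mesp1, the first factor of cardiac mesoderm, had 0 counts at day 3 and 8.38 CPM at day 7 of EBs, and at most 0.0994 CPM in the other 4 libraries. Sp5, a target of Wnt signalling, measured 0.378 to 9.97 CPM, with 34.3 CPM at day 5 between them. Crb2, a Crumbs protein that cells need to leave the streak, measured 3.17 to 96.4 CPM in EBs, 12.5 to 12.7 CPM in EpiSCs and 36.2 to 37.1 CPM in the Neural course, and the difference of EBs from the others was 4.14 ± 0.37 (log2, SE, adjusted p = 0.0113). Downward they were Cbln4, Plch2, Aldh1b1, Mocos, Pml and Abcg1. Pml, which builds nuclear bodies, measured 259.6 to 32 CPM in EBs, 38.2 to 58.1 CPM in EpiSCs and 25 to 30.2 CPM in the Neural course, so the EB library of day 3 stood above the other 5, and Abcg1, a lipid transporter, measured 58.9 to 13.2 CPM in EBs, 6.06 to 7.31 CPM in EpiSCs and 4.3 to 7.36 CPM in the Neural course. These genes were picked partly on the 2iL libraries that enter the test.

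In the Neural course the largest differences upward were Nkx2-2, Diras2, Enpp1, Fam151a, Dio3 and Nefm. Nkx2-2, a homeobox factor of the ventral neural tube, measured 0.291 to 0.333 CPM in EBs, 0.0994 to 0.692 CPM in EpiSCs and 0.127 to 6.32 CPM in the Neural course. Nefm, a neurofilament, measured 2.96 to 2.87 CPM in EBs, 5.91 to 10.9 CPM in EpiSCs and 2.47 to 83.3 CPM in the Neural course, and its difference from the other courses was 4.08 ± 0.40 (log2, SE, adjusted p = 0.00932). Enpp1, a membrane pyrophosphatase, measured 0.755 to 1.9 CPM in EBs, 2.88 to 1.83 CPM in EpiSCs and 1.33 to 83.3 CPM in the Neural course. The largest downward were Gfra3, Egr2, Wnt8a, Kcna1, Fbxo32 and Actn3. Wnt8a, a Wnt ligand of the epiblast and streak, measured 3.14 to 2.1 CPM in EBs, 44 to 23.9 CPM in EpiSCs and 158 to 4.91 CPM in the Neural course, with 49.95 CPM at day 5 of EBs, above both the day 3 and the day 7 library of that course. Egr2, a factor of the hindbrain and crest, measured 0.436 to 0.846 CPM in EBs, 0.348 to 0.889 CPM in EpiSCs and 15.3 to 1.41 CPM in the Neural course. For EpiSCs no gene met both conditions.

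**Figure D5:**
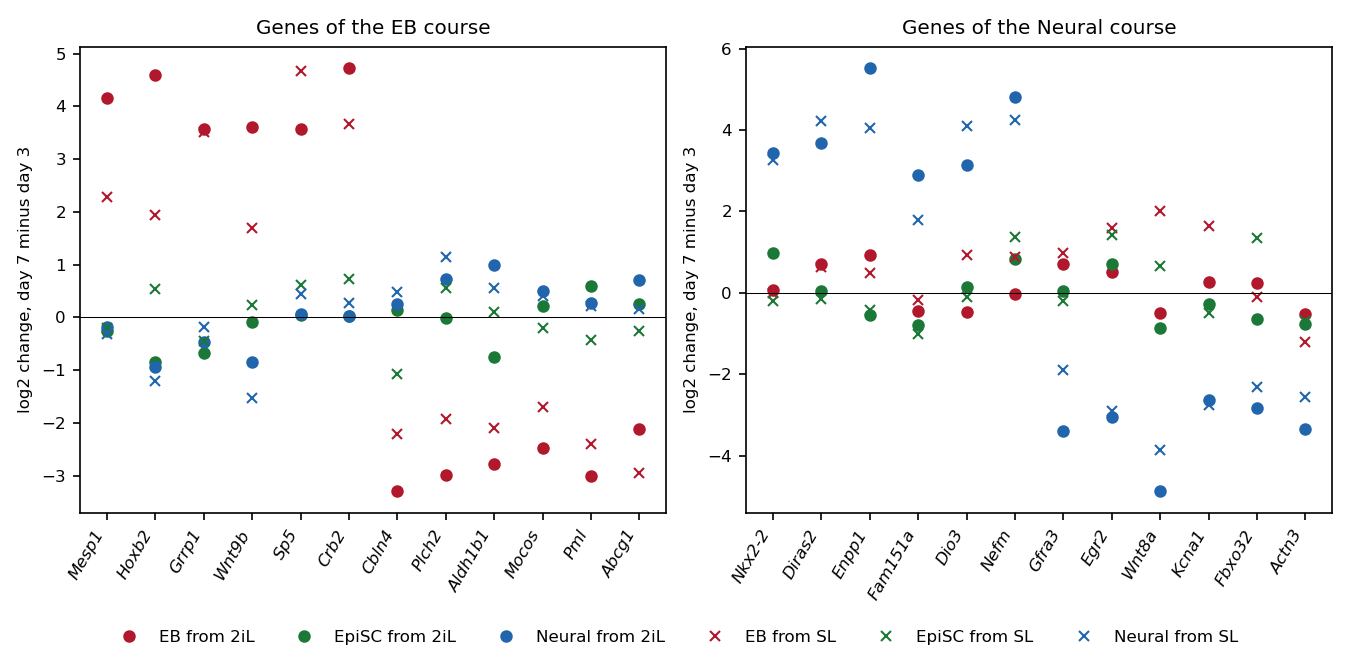
Log2 change from day 3 to day 7 (y axis) of the 12 genes named for the EB course and the 12 named for the Neural course (x axis), circles from 2iL and crosses from SL, coloured by course, 1 library per course and day. In each panel the course of the title lies apart from the other 2 from 2iL, which stay between -1 and 1, and its crosses from SL lie on the same side of 0 as its circles.

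The same comparison from SL called 6 of 14460 genes (0.0415%), all higher. A test of the difference between media in the change from day 3 to day 7 called 0 of 15311 genes with edgeR, with 229 under an unadjusted p of 0.05, and 2 with DESeq2. With 3 pairs per medium this does not show that the changes from 2iL and SL were alike. For the germline genes the median change was -1.55 in EBs, -2.27 in EpiSCs and -1.50 in the Neural course from SL, and for the chromosome 4 region -1.22, -1.68 and -1.36.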

How the data were processed

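Strand-specific RNA sequencing of 45 libraries was deposited as raw read counts per gene, 1 file for each library and 35372 genes, and the 6 libraries of days 3 and 7 from 2iL were compared. Per the methods of the study, the authors depleted ribosomal RNA, trimmed reads with TrimGalore, aligned them to GRCm38/mm10 with TopHat2 guided by Ensembl release 82 gene models with at most 1 mismatch, and made the deposited counts with featureCounts. Their versions are not given in the sources used here. Reads shared by near-identical genes may be lost or split by such counting.

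Groups were taken from the sample titles, 1 library for each medium, course and day, so that courses served as replicates and p-values measure only the spread between these libraries. The main test was the quasi-likelihood test of edgeR 4.0.16 (R 4.3.3) with TMM scaling, edgeR's default filter on low counts, the course as a block and Benjamini-Hochberg adjustment at 0.05 over all genes tested. The course entered as a block because libraries of days 3 and 7 of the same course deviated together from their day's mean. Pearson's r was 0.22 for EBs, 0.26 for EpiSCs and 0.25 for the Neural course over 14589 genes. For libraries of different courses it was under 0, which follows on balance from taking deviations from the mean of the same 3 libraries. The 23-library fit had a factor for each course and for each day. The course test and the test of media used the 12 libraries of days 3 and 7 from both media. CPM were scaled by TMM factors, and log2 changes used a pseudocount of 0.5 CPM. Alternatives were DESeq2 1.42.0, RLE scaling, no filter, no block, a pseudocount of 0.1 CPM, other limits on the size of a change, and each pair left out in turn. A fit without robust shrinkage and the 12-library fit of the shared change were added after the data had been seen. Only some of the edgeR fits were checked on simulated counts. The 23-library fit and the course test for EpiSCs and the Neural course were not among them. Intervals from counting error were not used, since the courses set the error.

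Named genes were the 12 rises and 12 falls with the largest smallest change among genes at least 2-fold changed in all 3 courses, with at least 5 CPM in the libraries of the higher day, the 6 largest course differences of each course and direction, and members of 23 lists. The members and the lists were chosen with earlier results of these data known, and 7 further lists were drawn up after values had been seen. Gene positions came from GENCODE M21 and promoters from RefSeq, both on GRCm38. Figures and tables were made with Python 3.11.15, pandas 2.3.3 and numpy 2.4.6.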

Additional observations from a re-analysis of the deposited data

Results flagged for a closer look

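The change from day 3 to day 7 differed between courses in the edgeR test over the 12 libraries of both media, in which 623 genes were called for EBs and 913 for the Neural course against the mean of the other 2 courses. All of the following differences, on the log2 scale as the change of that course minus the mean change of the others, had an adjusted p under 0.05 and the same direction from 2iL and from SL. Chosen from genes that moved in a single course from 2iL, they rest partly on the libraries that chose them.

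In EBs Hoxb2 differed by 7.09, Grrp1 by 5.84, Wnt9b by 5.08, Sp5 by 4.71 and Crb2 by 4.14, and the fitted difference of Mesp1, 12.73, depends on the prior count because the EB libraries of day 3 held 0 counts. Downward, Cbln4 differed by -4.86, Plch2 by -3.94, Aldh1b1 by -3.21, Mocos by -2.92, Pml by -2.87 and Abcg1 by -2.82.

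In the Neural course Nkx2-2 differed by 5.20, Diras2 by 4.86, Enpp1 by 4.81, Fam151a by 4.66, Dio3 by 4.51 and Nefm by 4.08. Downward, Gfra3 differed by -7.51, Egr2 by -5.12, Wnt8a by -4.81, Kcna1 by -4.15, Fbxo32 by -2.85 and Actn3 by -2.31.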

How the results depend on the processing

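The direction of each of the 49 named genes was the same under every alternative run, and over 490 combinations of gene and setting 312 stayed on their side of the threshold, 106 lost a call and 72 gained one. Of 808 values of list members under another pseudocount or scaling, 31 moved by more than the spread between courses. The counts of called genes moved between these alternatives, and the cause was not tested. For the change from 2iL, with 3 genes higher and 2 lower, DESeq2 called 1105 higher and 806 lower, the fit of 23 libraries 2332 higher and 2284 lower, that of 12 libraries 2551 higher and 2460 lower, and the test without a filter 49 higher and 16 lower, all 5 genes among them. Without the replicate block 17 higher and 16 lower were called, of which Acta2 and Anxa2 alone were among the 5. Leaving out 1 course gave 0 to 2 higher and 0 lower. Restricted to genes at least 2-fold changed in all 3 courses, the counts were 382 higher and 267 lower with DESeq2, 377 higher and 270 lower with 23 libraries, 374 higher and 255 lower with 12, 48 higher and 16 lower without a filter, 16 higher and 16 lower without the replicate block and 0 to 1 higher and 0 lower with 1 course left out. A smallest change of 0.5 instead of 1 gave 1101 higher and 766 lower genes in all 3 courses, and one of 2 gave 82 and 65. Among single-course changes, a pseudocount of 0.1 gave 19 lower genes in EpiSCs and 58 in the Neural course, and a smallest change of 3 gave 54 higher and 20 lower in EBs, 12 higher and 0 lower in EpiSCs and 57 higher and 6 lower in the Neural course. In the course test DESeq2 called 725 higher and 617 lower for EBs, 156 higher and 248 lower for EpiSCs and 898 higher and 799 lower for the Neural course. For EpiSCs it was 11 higher and 17 lower without a filter and 3 higher and 2 lower without the block, and for the Neural course 286 higher without the block. With 1 pair left out, the counts were 2 to 760 higher and 0 to 638 lower for EBs, lowest without either Neural pair and highest without the EB pair from SL, 0 to 125 higher and 0 to 198 lower for EpiSCs, highest without the EB pair from SL, and 0 to 1017 higher and 0 to 874 lower for the Neural course, lowest without its pair from 2iL. From SL, DESeq2 called 1096 higher and 789 lower, the test without the block 0 higher, and leaving out 1 course gave 0 to 209 higher and 0 to 75 lower, the most without the Neural course. For the difference between media DESeq2 called 2 lower. The replicate block changed no other call of these counts by over 1.5 times.

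With 3 courses, 1 library each, the main test had 2 residual degrees of freedom, an effect of 1 course from 2iL had no replicate, and courses differed in medium, attachment and serum together. Leaving out a pair removes 1 of these residual degrees of freedom from the 6-library tests. Low counts in the shallowest library, where 3 counts equal 0.19 CPM, leave changes of genes near that level uncertain.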

Other observations

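Near-identical gene copies gave large and uneven values in single libraries. Summed over 13 annotated copies at the start of chromosome 9 and similar copies on other chromosomes, the level from 2iL was 301 CPM at day 3 and 1194 CPM at day 7 in EBs, 24.4 and 1167 CPM in EpiSCs, and 12272 and 122 CPM in the Neural course, where day 5 held 5304 CPM. From SL the highest of the 6 libraries held 718 CPM.

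The 4 Zscan4 genes, which mark a rare cell state of ESC cultures like the early embryo, were at least 2-fold lower in every course from 2iL. Their sum was 418 and 2.82 CPM in EBs, 144 and 5.14 CPM in EpiSCs and 124 and 50.2 CPM in the Neural course. A family of 7 copies on chromosome 10 was lower in every course too, with sums of 2247 and 13.5 CPM in EBs, 671 and 17.4 CPM in EpiSCs and 597 and 182 CPM in the Neural course. These genes were singled out after their values had been seen, and reads of such copies can be split between them or lost.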
